A study of Sus scrofa with 8 samples.

Results

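The slow and fast troponin genes of pig skeletal muscle were compared between animals on a high energy diet and animals on a low energy diet. The members were the spots of a 2-colour array whose 1 gene symbol in the platform annotation is TNNT1, TNNI1, TNNC1 or TNNT2 (slow or cardiac) or TNNT3, TNNI2 or TNNC2 (fast). Of these 7 genes 6 had a spot, and TNNT2, the cardiac troponin T, had none. They covered 56 of the 9984 spots: 24 spots of 3 slow genes and 32 spots of 3 fast genes. All 6 genes were measured on all 8 arrays, so none was lost to the filter on missing values.

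Troponin is the calcium switch of striated muscle. Troponin C binds calcium, troponin I holds the actin filament in the inactive state, and troponin T anchors the complex to tropomyosin. Slow and fast fibres express different genes for each subunit, and slow skeletal fibres share their troponin C with the heart, so the ratio of slow to fast troponin transcripts is a common readout of fibre type. In bulk muscle RNA, fewer fibres of a type cannot be told apart from less transcript per fibre.

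Each array held cDNA of 1 high energy and 1 low energy muscle sample in competition, with low energy as the comparator per the design text. The 8 arrays formed 4 couples of samples, each hybridised once with the high energy sample in dye 5 and once with it in dye 3. High energy sample 40 met low energy sample 49 in couple 1 and low energy sample 142 in couple 3, high energy sample 41 met low energy sample 61 in couple 2, and high energy sample ae met low energy sample be in couple 4. The sources used here do not give breed, age, sex, which muscle was taken or what the diets held, nor whether a sample is 1 animal or several. The 2 arrays of a couple were averaged, so n is 4 couples. Couples 1 and 3 share high energy sample 40, so the 4 couples are not fully independent. An SD or plain SE over couples reflects the spread between these samples, which may be partly technical. It makes no allowance for the shared sample. The SE of a fitted ratio is the moderated SE of limma, which also draws on the variance of the other features.

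Between 77.6% and 94.4% of spots had a value per array. Neighbouring spots named for the same gene, 3305 such pairs in all, agreed weakly: across pairs within an array, Pearson's r was 0.043 to 0.24. A log2 ratio carries no level, so the tissue label could not be checked against marker levels. Replication is set by the number of couples, since the arrays of a couple hold the same samples and the spots of a gene share its transcript. Values are log2 ratios of high over low energy, the likely direction, since channel 1 is labelled low energy and channel 2 high energy on every array, whichever dye each carried. The deposited values themselves do not state it. The main ratios and counts are therefore given with turned values as well, obtained after changing the sign on the 4 swapped arrays, those that carried high energy in dye 3, which is the reading that applies if the values are ratios of one dye over the other.

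Read as high over low energy, the slow troponin T and troponin I transcripts lay below 0 on every array. The fast troponin T and I transcripts lay mostly above 0. Both troponin C transcripts averaged near 0, with arrays on both sides of it, from -0.25 to 0.20 for TNNC1 and from -0.19 to 0.077 for TNNC2. None of these ratios passed the test over all features. TNNT1 (human Entrez gene 7138), which encodes slow troponin T, had log2 ratios of -0.27, -0.24, -0.22 and -0.29 in couples 1 to 4 with high energy in dye 5. With high energy in dye 3 it had -0.074, -0.26, -0.19 and -0.11. All 8 arrays were thus lower in high energy muscle, and no array reached 0. The couple means were -0.17, -0.25, -0.21 and -0.20, an SD of 0.034, against a median SD of 0.17 over the 1928 named genes measured on all arrays, most of which have fewer spots. The fitted ratio was -0.21 ± 0.080 (SE, n = 4 couples), or 1.16-fold lower (adjusted p = 0.996, limma), and the turned value was -0.047 ± 0.084. Leaving out a couple gave -0.22 to -0.19. With the median of its spots in place of their mean the ratio was -0.16. The SE of 0.080 is moderated by the variance of the other features and is larger than the SD of 0.034 over couples.

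**Figure D1:**
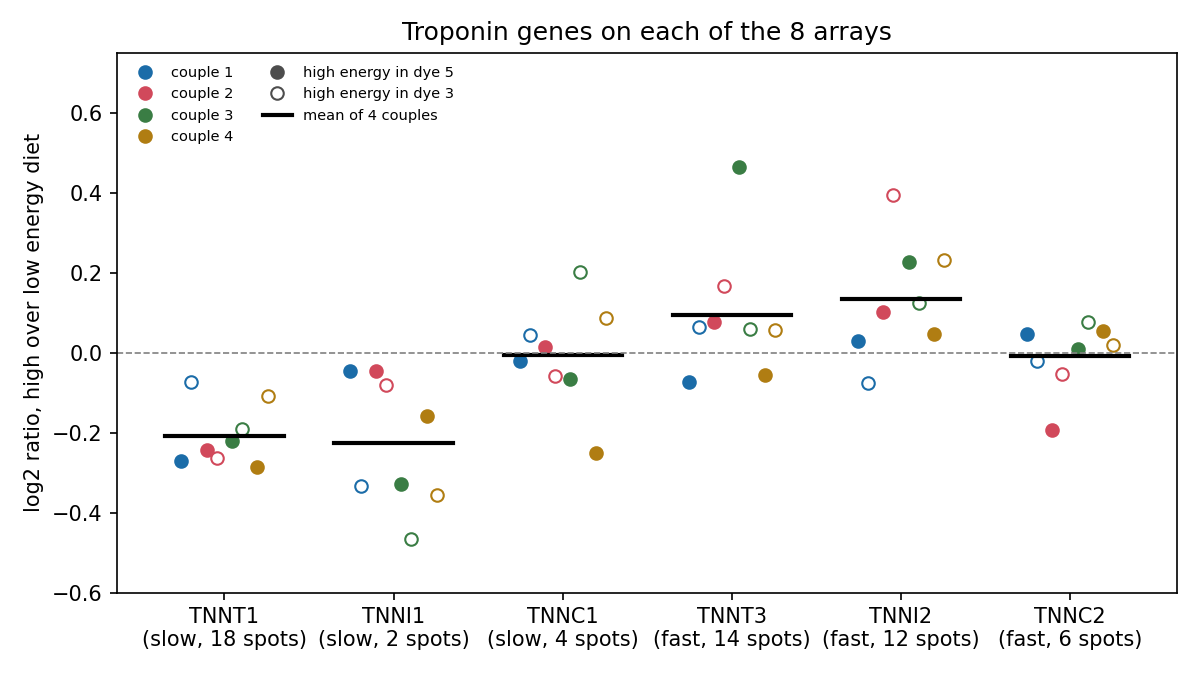
Log2 ratio of high over low energy muscle for the 6 troponin genes on each array, coloured by couple, filled where the high energy sample was in dye 5 and open where it was in dye 3; the bar is the plain mean of 4 couples. All points of TNNT1 and TNNI1 lie below 0, most of TNNT3 and TNNI2 lie above it, and TNNC1 and TNNC2 straddle it.

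TNNI1 (human Entrez gene 7135), the slow form of the inhibitory subunit, was below 0 on all 8 arrays as well. With high energy in dye 5 it had -0.045, -0.045, -0.33 and -0.16 in couples 1 to 4, and with high energy in dye 3 it had -0.33, -0.082, -0.47 and -0.36. The fitted ratio was -0.21 ± 0.10 (SE, n = 4; adjusted p = 0.996, limma), also 1.16-fold lower, with a turned value of 0.078 ± 0.083. Only 2 spots stand behind it, and they went opposite ways on most arrays. Spot 29 had -0.026, 0.24, 0.45 and 0.29 with high energy in dye 5 and -0.81, 0.25, -1.06 and -0.37 with high energy in dye 3. Spot 30 had -0.064, -0.33, -1.11 and -0.61 with high energy in dye 5 and 0.14, -0.42, 0.13 and -0.34 with high energy in dye 3. Singly, spot 29 was below 0 on 4 arrays and spot 30 on 6, the 2 shared a sign on 2 arrays, and they lay over 0.5 apart on 6. The even sign of TNNI1 is therefore a property of the mean of 2 discordant spots. Across the 8 arrays their r was -0.82, and 15 of 1653 named pairs measured on all arrays, or 0.907%, had an r that low. Turned, their r was -0.27, while the distance between the spots on an array does not depend on the direction.

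**Figure D2:**
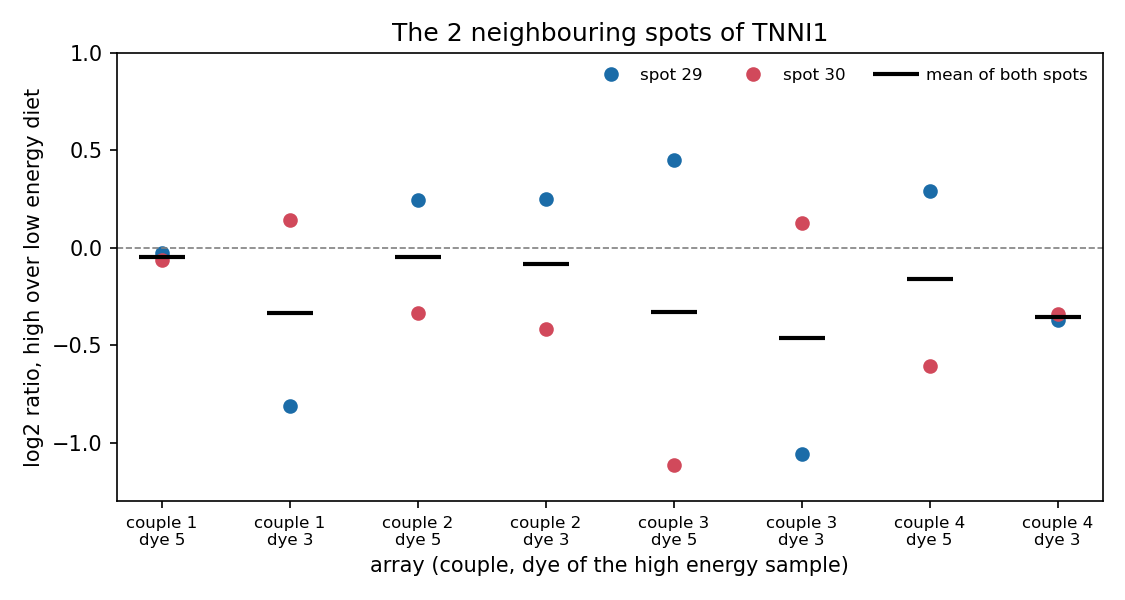
Log2 ratio of high over low energy muscle for the 2 neighbouring spots of TNNI1 on each array, labelled by couple and by the dye of the high energy sample; black bars are the mean of both spots. The spots lie on opposite sides of 0 on 6 arrays while their mean stays below 0 on all 8.

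TNNC1 (human Entrez gene 7134), the calcium-binding subunit of slow and cardiac muscle, averaged near 0. Its 4 spots averaged -0.019, 0.015, -0.065 and -0.25 in couples 1 to 4 with high energy in dye 5 and 0.045, -0.058, 0.20 and 0.087 with high energy in dye 3. It was below 0 on 4 arrays and above 0 on 4. The fitted ratio was -0.014 ± 0.083 (SE, n = 4; adjusted p = 0.996, limma) and the turned value -0.073 ± 0.090. Without couple 4 the ratio was 0.014.

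TNNI2 (human Entrez gene 7136), the inhibitory subunit of fast fibres, was above 0 on 7 of 8 arrays. With high energy in dye 5 it had 0.031, 0.10, 0.23 and 0.048 in couples 1 to 4, and with high energy in dye 3 it had -0.076, 0.39, 0.12 and 0.23. The fitted ratio was 0.15 ± 0.096 (SE, n = 4; adjusted p = 0.996, limma), or 1.11-fold higher, with a turned value of -0.051 ± 0.088. A single spot value of 3.57, that of spot 3677 in couple 4, decided the last of these arrays. Without it the other spots averaged -0.072 there, and the fitted ratio was 0.10. With the median of its spots in place of their mean the ratio was 0.074.

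TNNT3 (human Entrez gene 7140), the fast tropomyosin-binding subunit, was above 0 on 6 of 8 arrays. It had -0.072, 0.076, 0.47 and -0.056 in couples 1 to 4 with high energy in dye 5, and 0.065, 0.17, 0.059 and 0.057 with high energy in dye 3. The array at 0.47 rested on spot 4558, which read 5.21 in couple 3, and without that spot the gene averaged 0.035 there. The fitted ratio was 0.088 ± 0.10 (SE, n = 4; adjusted p = 0.996, limma) with a turned value of -0.0035 ± 0.10. It was 0.045 without spot values over 2 in size, 0.039 without couple 3 and 0.025 with the median of its spots.

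TNNC2 (human Entrez gene 7125), the calcium-binding subunit of fast fibres, had 0.046, -0.19, 0.0097 and 0.054 in couples 1 to 4 with high energy in dye 5. With high energy in dye 3 it had -0.019, -0.054, 0.077 and 0.019. Its 8 values straddled 0, with 5 above and 3 below. The fitted ratio was -0.015 ± 0.085 (SE, n = 4; adjusted p = 0.996, limma) and the turned value -0.016 ± 0.083, and without couple 2 the ratio was 0.032.

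In order from lowest to highest fitted ratio, the genes were TNNI1, TNNT1, TNNC2, TNNC1, TNNT3 and TNNI2. TNNI1 and TNNT1 differed by less than either SE, as did TNNC2 and TNNC1, and TNNT3 and TNNI2. The step between TNNT1 and TNNC2 was wider than either SE, and that between TNNC1 and TNNT3 was about as wide as 1 SE. The arrays of genes next to each other in this order overlapped in every case: the highest array of TNNT1 was at -0.074 and the lowest of TNNC2 at -0.19. TNNT1 and TNNI2 overlapped only at their edges, since the lowest array of TNNI2 was at -0.076. This order belongs to the likely direction: by turned value it was TNNC1, TNNI2, TNNT1, TNNC2, TNNT3 and TNNI1, from -0.073 to 0.078, all within 1 SE of 0.

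As class means, and read as high over low energy, the slow genes lay below the fast genes on every array. The mean of the 3 slow genes minus the mean of the 3 fast genes was -0.11, -0.086, -0.44 and -0.25 in couples 1 to 4 with high energy in dye 5, and -0.11, -0.30, -0.24 and -0.23 with high energy in dye 3. Its mean over couples was -0.22 ± 0.094 (SD, n = 4), and leaving out a couple gave -0.26 to -0.18. The slow mean was -0.15 ± 0.037 and the fast mean 0.074 ± 0.068 (SD, n = 4 each). Turned, the slow mean was -0.014 ± 0.033 and the fast mean -0.013 ± 0.069. A constant taken from all spots of an array cancels in the difference, and centring on runs of 96 neighbouring spots gave -0.23. Without spot values over 2 in size it was -0.19 ± 0.063, still below 0 on all 8 arrays, and its lowest array was -0.30 in place of -0.44. Its turned value was -0.00073 ± 0.086 (SD, n = 4): that is the slow minus fast difference under the reading as dye ratios, and the readings cannot be told apart from these values.

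By subunit, and read as high over low energy, the difference lay in troponin T and troponin I. TNNT1 minus TNNT3 was below 0 on all 8 arrays, between -0.69 and -0.14, with a mean of -0.30 ± 0.14 (SD, n = 4; turned -0.057 ± 0.12). The limit of -0.69 rests on the spot value of 5.21: without spot values over 2 in size that array was at -0.26, the lowest array was -0.43 and the mean was -0.25 ± 0.091. TNNI1 minus TNNI2 was also below 0 on all 8, between -0.59 and -0.076, with a mean of -0.36 ± 0.17 (turned 0.12 ± 0.079). Without spot values over 2 in size its mean was -0.32 ± 0.18, still below 0 on all 8. Its TNNI1 term is the mean of the discordant spots described above. TNNC1 minus TNNC2 was below 0 on 4 arrays, between -0.30 and 0.21, with a mean of 0.0025 ± 0.091 (turned -0.061 ± 0.12). These are descriptions with no test, since the genes were chosen with results of these data known.

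**Figure D3:**
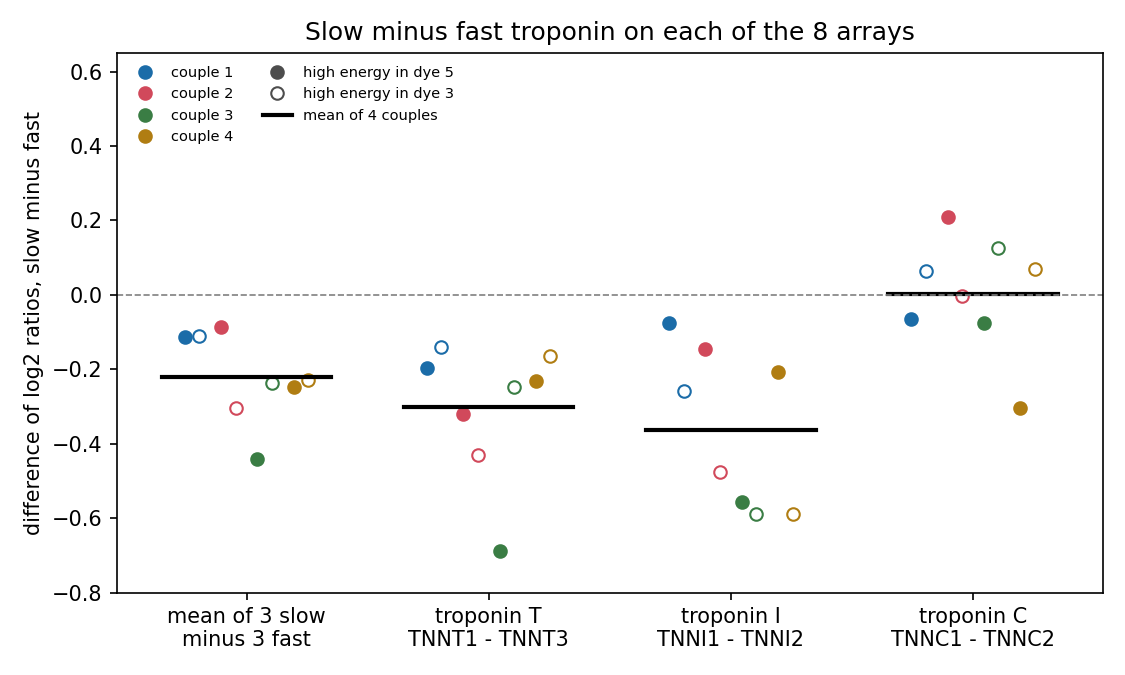
Difference of log2 ratios, slow minus fast troponin, on each array for the mean of 3 slow and 3 fast genes and for each subunit, with couples coloured and filled points where the high energy sample was in dye 5; the bar is the mean of 4 couples. The class mean, troponin T and troponin I differences are below 0 on all 8 arrays, and troponin C scatters around 0.

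Over the whole table, limma called 0 of 5025 features at a Benjamini-Hochberg threshold of 0.05, a background of 0%, and accordingly 0 of the 6 troponin genes. At an unadjusted threshold of 0.05, 121 features or 2.41% were below 0, and TNNT1 was the only troponin gene among them. TNNT1 and TNNI1 were 2 of 53 features below 0 on all arrays, which is 1.46% of the 3640 features measured on all 8. Turned, each of these genes was below 0 on 4 arrays and above 0 on 4, and 16 features were below 0 on all 8. None of the fast genes was above 0 on all 8, as 0.797% of those features were. All of these readings are of small differences: the median size of a ratio over the tested features was 0.090, and TNNT1 ranked 530 from the lowest, so that 10.5% of features were as low or lower. Turned, it was at -0.047 and ranked 1927, with 38.4% of features as low or lower.

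The spots of a gene differed among themselves, which shows how far the gene means rest on particular probes. The 9 pairs of neighbouring TNNT1 spots ranged from -0.51 to 0.058, with 8 below 0 and a median of -0.17. The lowest pair, spots 4075 and 4076, lay between -0.92 and -0.17 on the 8 arrays and had a mean of -0.51 ± 0.20 (SD, n = 4 couples). Spots 3941 and 3942 were below 0 on all 8 arrays too, at -0.33 ± 0.11. Of the pairs below 0, those nearest to it had 2 couples above 0 each. These were spots 1325 and 1326 at -0.081 ± 0.18, and spots 4335 and 4336 at -0.031 ± 0.13 in 3 couples. The highest pair, spots 3629 and 3630, lay between -0.12 and 0.21 with a mean of 0.058 ± 0.041, so the arrays of the highest and the lowest pair did not overlap. The annotation gives the same human transcript for all 9 pairs, so it does not separate them by isoform or position.

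Of the 6 TNNI2 pairs 5 were above 0, with a median of 0.13, and spots 3677 and 3678 were the highest at 0.35 ± 0.58. Of the 7 TNNT3 pairs 4 were above 0 with a median of 0.038, and spots 4557 and 4558, which include the value of 5.21, were the highest at 0.47 ± 0.61 in 3 couples. The 3 TNNC2 pairs disagreed: spots 113 and 114 were above 0 on all 8 arrays, at 0.16 ± 0.076, spots 1907 and 1908 were at -0.023 ± 0.064, and spots 2007 and 2008 were at -0.26 ± 0.33 in 3 couples. The gene mean of TNNC2 near 0 thus averages pairs of opposite sign, and the median of its 6 spots gave 0.066. The TNNC1 pairs were also of opposite sign. Spots 37 and 38 were at -0.063 ± 0.16, and spots 3851 and 3852 at 0.052 ± 0.035, above 0 in 4 couples. In all, 10 of 12 slow pairs were below 0 and 10 of 16 fast pairs above 0, where 1688 of all 3274 named pairs were below 0; pairs of 1 gene share its transcript and are not replicates. Turned, 9 of 12 slow pairs were below 0 with a median of -0.062, and 7 of 16 fast pairs were above 0 with a median of -0.014. The lowest TNNT1 pair, spots 4075 and 4076, was at -0.096 ± 0.18 when turned, and the TNNC2 pair of spots 113 and 114 at -0.0024 ± 0.036.

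**Figure D4:**
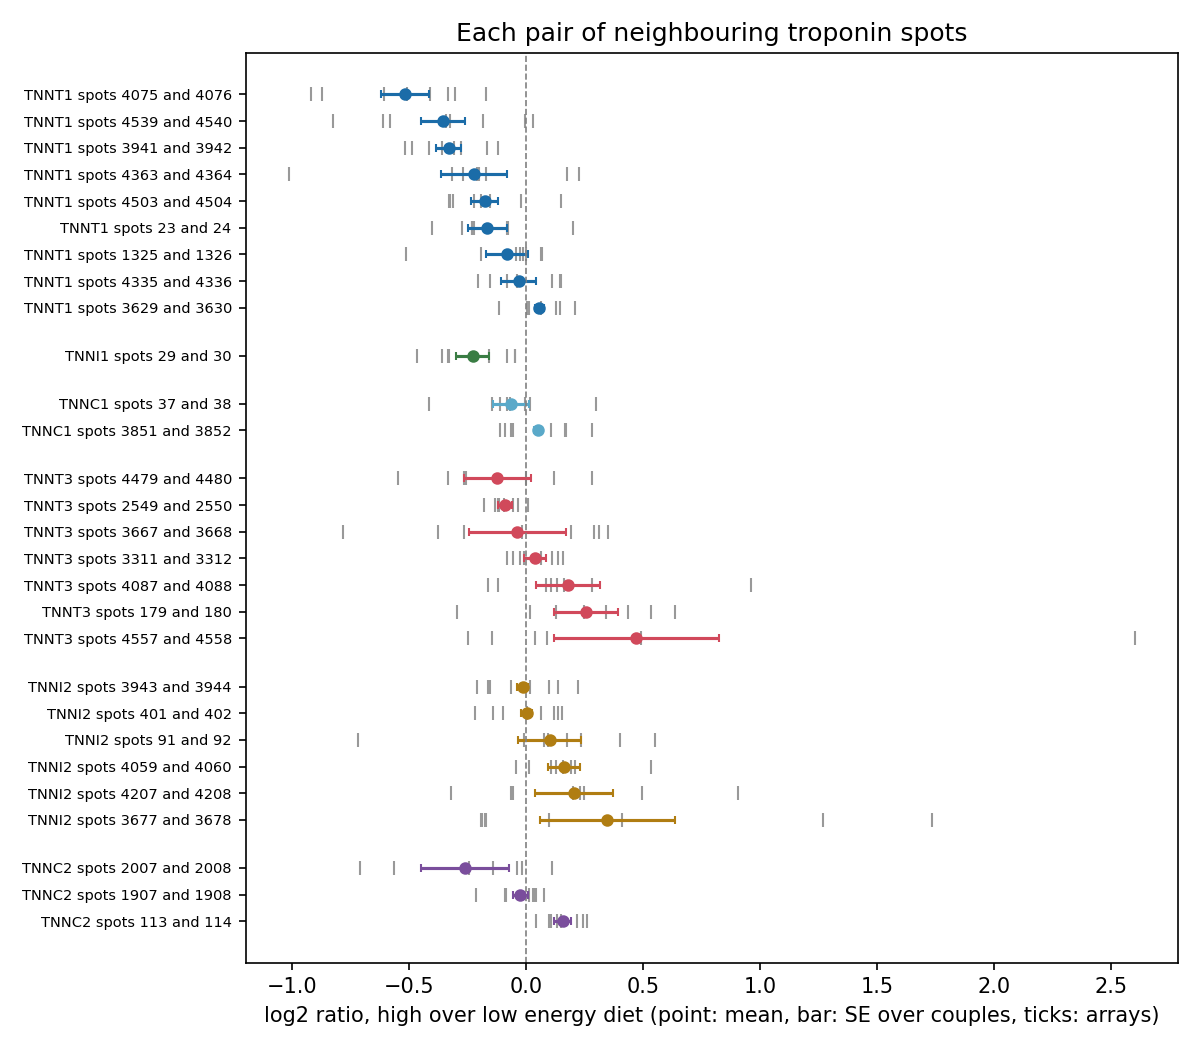
Log2 ratio of high over low energy muscle for each of the 28 pairs of neighbouring troponin spots, by gene; points are means over couples with their SE, and grey ticks are the arrays. TNNT1 pairs run from -0.51 to 0.058, and the pairs of TNNC2 lie on both sides of 0.

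Over the 8 arrays, which share samples within a couple, r was -0.69 between TNNT1 and TNNI1, 0.60 between TNNT1 and TNNC1 and 0.51 between TNNT3 and TNNI2. Turned, these were 0.77, 0.14 and 0.69, so the sign for TNNT1 and TNNI1 depends on the direction of the ratio. Outside the family, the 5 genes of 1922 most like the slow mean over the 8 arrays were PHB2 (r = 0.94), COPA (r = 0.93), CD2BP2 (r = 0.93), PSMC3 (r = 0.91) and TBC1D5 (r = 0.90). Those most like the fast mean were MEF2D (r = 0.98), UBXN6 (r = 0.92), STIM1 (r = 0.88), PCBD2 (r = 0.87) and LMNA (r = 0.87). MEF2D, a transcription factor of muscle, had a ratio of 0.19 ± 0.16, and PHB2, a prohibitin of mitochondria, -0.076 ± 0.10 (SE of the fit). A high r did not always go with a ratio of the same sign as the class mean. PCBD2 had -0.27 ± 0.097 and STIM1 -0.13 ± 0.13, both below 0, and TBC1D5 had 0.082 ± 0.14, above 0. The remaining genes of both lists had the sign of their class mean. These correlations are descriptions over arrays that share samples and were picked as the highest of many. The fast mean of couple 3 with high energy in dye 5, its highest array at 0.23, was 0.091 without the spot value of 5.21. Without spot values over 2 in size MEF2D had r = 0.82 and ranked 9, and UBXN6 ranked 1 at 0.93. PCBD2, LMNA and STIM1 then ranked 10, 12 and 18. Turned r with the fast mean was taken with the spot value of 5.21 kept. It was 0.98 for MEF2D, 0.96 for UBXN6, 0.90 for LMNA, 0.36 for STIM1 and -0.18 for PCBD2. Turned r with the slow mean ran from -0.063 for TBC1D5, ranked 1148, to 0.71 for PSMC3, ranked 75. It was 0.67 for PHB2, which then ranked 101.

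In the pig RefSeq annotation (Sscrofa11.1), TNNT1 lies directly beside TNNI3, the cardiac troponin I, and TNNI2 lies near TNNT3 with 2 genes between them. TNNI3 had a ratio of -0.020 ± 0.14 (SE, n = 3 couples; turned 0.20), with 4 of its 7 arrays above 0.

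Of 12 other slow fibre genes, 10 were below 0, with a median of -0.043, beside a median of -0.012 and 2693 of 5025 below 0 over all features tested; 0 passed the test. Turned, 6 of these 12 were below 0, with a median of -0.0029. MYBPC1, the slow myosin-binding protein C, had couple means of -0.25, -0.34, -0.43 and -0.24 and a ratio of -0.31 ± 0.091 (turned 0.024). Myoglobin (MB), the oxygen store of slow fibres, had -0.12, -0.30, -0.24 and -0.52 and a ratio of -0.32 ± 0.10 (turned 0.22). Both were lower in every couple, while ANKRD2, a stretch-responsive gene of slow muscle, was higher in every couple at 0.15 ± 0.083 (turned -0.069).

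Of 10 other fast fibre genes, 5 were above 0, with a median of 0.0038, and 0 passed; turned, 7 were above 0, with a median of 0.027. MYL1, a light chain of fast myosin, was above 0 on all 8 arrays, with couple means of 0.34, 0.57, 0.35 and 0.20 and a ratio of 0.37 ± 0.10 (turned -0.036). MYOZ1, a Z-disc protein of fast fibres, had 0.096 ± 0.091 (turned 0.044). MYH1, a fast myosin heavy chain, had -0.17 ± 0.11 (turned 0.060) and was below 0 on 7 arrays. The list mean of the slow genes was -0.0089, -0.071, -0.066 and -0.13 in couples 1 to 4, and that of the fast genes 0.018, 0.0078, 0.028 and 0.042.

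**Figure D5:**
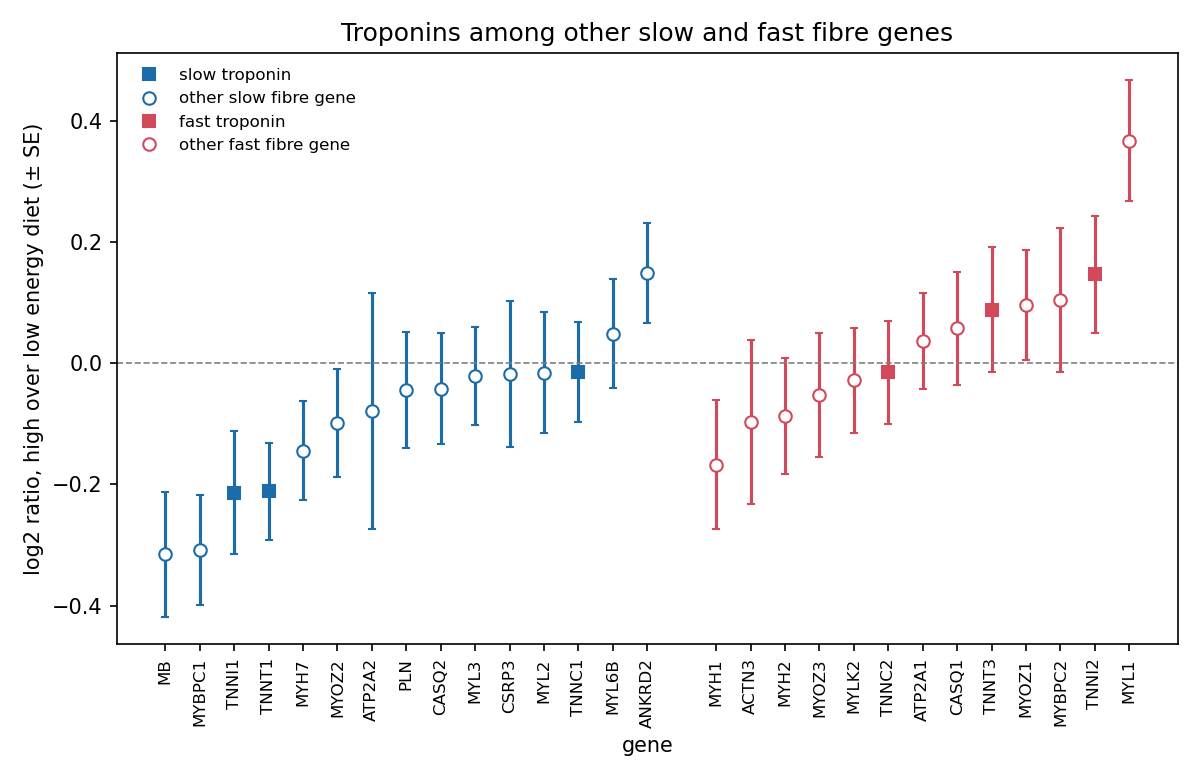
Log2 ratio of high over low energy muscle with the SE of the fit for slow (blue, left) and fast (red, right) fibre genes, ordered within each class. Filled squares are troponins and open circles the other genes. TNNI1 and TNNT1 sit next to MB and MYBPC1 at the low end of the slow genes, and MYL1 is the highest of the fast genes.

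Of 10 partners of troponin on the thin filament, 4 were above 0, with a median of -0.028, and 0 passed; turned, 7 were above 0, with a median of 0.054. TPM1, a tropomyosin, had 0.24 ± 0.11 (turned 0.037). TMOD4, a cap of the filament end, had 0.14 ± 0.084 (turned 0.11), and nebulin (NEB), which runs along the filament, had -0.21 ± 0.20 (turned 0.11). Of 9 genes of calcium release and uptake, 6 were above 0, with a median of 0.038, and 0 passed; turned, 7 were above 0, with a median of 0.050. FKBP1A, a subunit bound to the calcium release channel, had 0.22 ± 0.13 (turned 0.10), CACNB1, a subunit of the voltage sensor channel, had 0.14 ± 0.087 (turned 0.10), and JPH2, which joins the membranes of the calcium release site, had -0.12 ± 0.12 in 3 couples (turned 0.059).

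Markers of other cell types were measured beside the troponins, with 0 passing the test in any list. Of 4 smooth muscle markers 3 were above 0 (median 0.11), of 4 cardiac markers 2 (median 0.054), of 5 fibroblast markers 3 (median 0.0013), of 5 fat cell markers 3 (median 0.039) and of 7 blood and immune cell markers 3 (median -0.018). Turned, 0 of the 4 smooth muscle markers were above 0 (median -0.18), 2 cardiac (median 0.072), 2 fibroblast (median -0.071), 2 fat cell (median -0.019) and 5 blood and immune cell markers (median 0.038). Their part in the troponin ratios was not tested.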

How the data were processed

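The deposited table holds log2 ratios of the 2 channels of each array, made by the authors; the sources used here do not say how they corrected background, filtered spots or normalized. The log base was settled by matching values under 0.29 in size to simple fractions (denominators of at most 60), which fitted 4.46% to 13.9% per array as base 2 and 0% as base e or 10. Each array had its median subtracted. The platform annotation gave 1 symbol for 6610 of 9984 spots; its accessions are human, and symbols were kept as given. Spots of a gene were averaged, unnamed spots were kept singly (6296 features), and the 2 arrays of a couple were averaged. Features measured in both orientations of at least 3 couples (5025) were tested with limma 3.58.1 (R 4.3.3; lmFit, eBayes), with a correlation of 0.5 assumed between the couples that share high energy sample 40, which weights couples 1 and 3 less, and Benjamini-Hochberg adjustment over all of them. Differences and pairs of spots are plain means over couples. The fit was also run on simulated data drawn with the same correlation of 0.5, which cannot check that assumption. Other centrings and scalings, single dye orientations, the median of spots, filters on missing values, left-out couples and other treatments of the couples were tried as alternatives. Members and lists were chosen with earlier results of these data known; named genes were all members, up to 3 genes of lowest p per pathway list and the 5 most correlated with each troponin class. Whether arrays of a couple are 1 replicate follows from their titles, which give the same 2 samples with swapped dyes.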

Additional observations from a re-analysis of the deposited data

Results flagged for a closer look

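Among 30 groups of 4 values examined, 1 held a value far from the others; chance marks about 1 group in 20. TNNT3 with high energy in dye 3 was at 0.17 in couple 2, against 0.057 to 0.065 in the other 3 couples, so the gap to the nearest took up 0.92 of the range. The value of couple 2 is within the range of TNNT3 on the arrays with high energy in dye 5 only through couple 3 at 0.47. That array rests on the spot value of 5.21 and was at 0.035 without it. The highest of these arrays was then 0.076, in couple 2, below the flagged 0.17.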

How the results depend on the processing

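Each troponin ratio was recomputed under 16 or 17 other settings, and none passed the threshold in any of them (smallest adjusted p = 0.369, limma, for TNNT1 with all 8 arrays and the couple as a replicate block). The correlation within couples estimated for that block was -0.036, so the 8 arrays entered nearly as if independent. TNNT1 kept its sign in all 17, from -0.26 to -0.047. With the swapped arrays turned, TNNI1 was 0.078, TNNT3 -0.0035, TNNI2 -0.051, the slow minus fast difference -0.00073 and the mean of the other slow fibre genes 0.00082. TNNC1 was 0.058 and TNNC2 0.00083 with high energy in dye 3 alone. TNNC2 was 0.066 with the median of its spots and 0.022 without discordant neighbouring spots, a setting in which TNNI1 could not be fitted. Leaving out a couple gave -0.030 to 0.014 for TNNC1 and -0.037 to 0.032 for TNNC2. The slow minus fast difference stayed below 0 in the other 13 settings. The other fast fibre genes averaged 0.040 with high energy in dye 5 alone and -0.0013 without discordant neighbouring spots, against 0.023. Features at an unadjusted p under 0.05 numbered 121 below and 69 above 0. They numbered 62 below when turned, 57 below and 42 above with high energy in dye 5 alone, 198 below and 112 above with couples taken as independent, and 222 below and 131 above with the replicate block. Leaving out a couple gave 70 (couple 2) to 186 (couple 3) below and 37 (couple 2) to 101 (couple 1) above. This range spans unlike fits. Without couple 1 or couple 3 no sample was shared and no correlation was used, while the fits without couple 2 or couple 4 kept 0.5. The causes were not tested. Leaving out discordant neighbours or spot values over 2 in size, and turned counts of pairs and lists, were chosen after seeing the data. The correlation of couples 1 and 3 could not be estimated with 1 shared sample and was not run.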

Other observations

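The following was looked at after the values were seen. Of the named genes, 48 were measured on all arrays and had at least 6 spots. TNNT1, with 18 spots, was the only one of these 48 below 0 on all 8 arrays, and 2 were above 0 on all 8. Its SD over couples was among the 3 smallest of the 48, whose median SD was 0.14, and 3 of the 48, TNNT1 included, had a ratio as low. Turned, TNNT1 was below 0 on 4 arrays.

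Agreement of neighbouring spots varied widely within the troponin family. Across arrays, r between the 2 spots of a pair was below 0 in 10 of 28 troponin pairs, with a median of 0.36. The median over 1653 named pairs was 0.20. The sets are unlike, since those pairs were all measured on 8 arrays and some troponin pairs on only 5 to 7. Between neighbours, r was 0.87 for TNNT1 spots 1325 and 1326 and for TNNT3 spots 179 and 180, and -0.84 for TNNT3 spots 2549 and 2550. Turned, r was below 0 in 6 of the 28 pairs, with a median of 0.51, and it was 0.85, 0.92 and -0.38 for these 3 pairs in the same order. No turned median was taken over the named pairs. Neighbours lay over 0.5 apart in 8.70% of TNNT1 values, 27.1% of TNNI2 values and 75.0% of TNNI1 values, against 29.3% over all named pairs.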
